A study of Homo sapiens with 6 samples.

Results

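The 8 genes described here encode core parts of the cell-intrinsic death machinery and its brakes: CASP6, CASP9, APAF1, CYCS, DIABLO, XIAP, BIRC2 and BIRC5. They were chosen by name, with no threshold on their values but with earlier results of these data known. Each matched 1 of the 31016 genes of the deposited table. All 8 passed the filter on low counts that left 18265 genes to test. TFA, the total flavone fraction of the plant Abelmoschus manihot, left none of them with a detectable change: every gene's values overlapped between the groups, and fitted fold changes ran from 0.947 to 1.204. The differences that were visible lay between libraries of the same treatment, and mostly between TGFb_TFA 3 and the others.

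In the intrinsic pathway of apoptosis, mitochondria that become permeable release cytochrome c, the product of CYCS, into the cytosol. There it binds APAF1, which assembles into the apoptosome and recruits and activates CASP9, the initiator caspase. CASP9 switches on the executioner caspases, which dismantle the cell, and CASP6 acts among them as a cleaver of nuclear lamins. The inhibitor of apoptosis proteins (IAPs) share the zinc-binding BIR fold. XIAP blocks caspases directly, BIRC2 (cIAP1) is a ubiquitin ligase of tumour necrosis factor signalling, and BIRC5 (survivin) serves mainly in mitosis. DIABLO (Smac), released together with cytochrome c, binds IAPs and lifts their block. All of these are controlled strongly at the protein level, by release, cleavage and degradation, which RNA does not measure.

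The cells were DLD-1, an established human colorectal adenocarcinoma line. Cells treated with TGF-β gave the libraries TGFb 1 to 3. Cells that received TFA as well gave TGFb_TFA 1 to 3. Both groups therefore carry TGF-β, and no library without it is analysed here. The labels give a treatment of 24, 25 and 26 hours for replicates 1, 2 and 3 in each group, so labelled time and replicate number cannot be told apart, and the sources used here state no dose. The series' design text names cell migration and apoptosis as the outcomes of interest. The labels do not say that the libraries came from separate cultures, so p-values measure the spread between these libraries, which may be technical.

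Libraries held 60361756 to 68745953 estimated counts each. TGFb_TFA 3 stood apart: the shortest 10% of genes had a median departure of 0.36 from their mean over the 6 libraries (in log2 CPM, counts scaled to library size) and the longest 10% one of -0.33. It was the highest library for 28.6% of all tested genes and the lowest for 29.8%. TGFb 2 had the same slope in weaker form, at 0.10 and -0.16. On the first principal component of log2 CPM (35.7% of the variance) TGFb 1 lay farthest out, at -99.6, with TGFb_TFA 3 at 50.5 and the others at 5.12 to 19.6. Of 12 colon epithelial markers, 11 were in the table, with EPCAM (205 FPKM in the TGFb group) and CDX2 (10.001 FPKM) clearly present, while VIL1 (0.264 FPKM), CEACAM5 (0.0284 FPKM) and LGALS4 (0.074 FPKM) were near 0. FPKM are fragment numbers scaled to transcript length and library size. The gene lengths used for the slopes above are effective lengths, estimated from the deposited counts and FPKM. The 10 fibroblast markers summed to 0.063 to 0.367 FPKM in the TGFb libraries and 0.448 to 2.37 FPKM with TFA, a trace level that moved with the groups, with no marker at 0 in every library. However, DCN, LUM, POSTN and COL3A1 were at 0 in the TGFb libraries and in TGFb_TFA 1. The 8 endothelial markers summed to 1.55 to 1.99 FPKM against 2.04 to 2.38 FPKM, also without overlap. Most of this sum was EGFL7, whose group means were 1.19 FPKM (TGFb) and 1.38 FPKM (TGFb_TFA). Of the 6 endothelial markers tested, 5 had a log2 fold change above 0 and 0 were called by edgeR at an adjusted p under 0.05. The groups did not overlap in 3, beside 7.91% of all tested genes. These were EGFL7 and, at 0 to 0.137 FPKM, VWF and KDR. CLDN5 was lower in the TGFb_TFA group (mean 0.104 FPKM, against 0.183 FPKM). The 6 haematopoietic markers in the table summed to 0.360 to 0.538 FPKM against 0.346 to 0.697 FPKM. The part of these cell markers in the results below was not tested.

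The sequences just upstream of 3 genes are shown because these genes carried the main contrast between libraries: APAF1 and BIRC2 were lowest together in TGFb_TFA 3, where CYCS was highest. RefSeq's promoter table (GRCh38.p14) held 7 of the 8 genes; BIRC5 was not matched. Each run ends at the base before the gene start given with its values below. Capitals mark matches, on either strand, to a GC box (GGGCGG), a cAMP response element (TGACGTCA), the core of the site for nuclear respiratory factor NRF1 (GCATGCGC) or a CCAAT box (CCAAT).
CYCS, chr7:25125261-25125510, minus strand: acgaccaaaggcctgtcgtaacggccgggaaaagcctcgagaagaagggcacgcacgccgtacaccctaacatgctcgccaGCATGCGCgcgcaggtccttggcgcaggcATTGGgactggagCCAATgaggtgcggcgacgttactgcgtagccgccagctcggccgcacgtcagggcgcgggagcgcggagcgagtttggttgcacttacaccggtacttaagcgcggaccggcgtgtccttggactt
APAF1, chr12:98645040-98645289, plus strand: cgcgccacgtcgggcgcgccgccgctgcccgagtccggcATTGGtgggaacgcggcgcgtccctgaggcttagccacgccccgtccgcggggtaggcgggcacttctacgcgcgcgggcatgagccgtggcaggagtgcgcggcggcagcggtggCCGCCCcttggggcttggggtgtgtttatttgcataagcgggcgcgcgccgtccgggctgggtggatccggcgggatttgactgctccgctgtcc
BIRC2, chr11:102346964-102347210, plus strand: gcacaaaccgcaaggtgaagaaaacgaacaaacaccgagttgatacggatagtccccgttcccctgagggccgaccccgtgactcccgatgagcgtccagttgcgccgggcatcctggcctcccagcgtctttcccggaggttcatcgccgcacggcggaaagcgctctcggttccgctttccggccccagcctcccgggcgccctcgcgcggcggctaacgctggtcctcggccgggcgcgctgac
The CYCS run held 1 NRF1 core, found in 2.63% of all 35116 windows of 250 bases, and 2 CCAAT boxes, present in 32.0% of windows. APAF1 held 1 CCAAT box and 1 GC box, the latter found in 42.6% of windows. The 247 bases before BIRC2 held none of the 4 motifs, although both of its complete RefSeq entries, which run past the gene's start, contain a cAMP response element, as do 1.85% of all entries of 300 bases, and a GC box, as do 45.0%. These matches are letters in a window and not measured binding.

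No member passed the test for a change with TFA. In edgeR's quasi-likelihood test with Benjamini-Hochberg adjustment over all tested genes, 0 of 8 passed an adjusted p of 0.05 (adjusted p = 0.9997 for each), against 0.0109% of all genes. At an unadjusted p under 0.05 there were also 0 of 8, against 1.83% of all genes. DESeq2 called 0 of 8 as well (0.0712% of all genes), with 0 at an unadjusted p under 0.05 (2.33%). Groups did not overlap in 0 of 8 members and in 7.91% of all genes (4.58% with TFA above, 3.33% with TFA below). The fitted log2 fold changes had a median of 0.07, beside 0.01 over all tested genes, and 5 of the 8 lay above 0. The data still leave room for moderate effects: the 95% intervals reached down to a 0.65-fold level (BIRC2) and up to 1.72-fold (CYCS).

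**Figure D1:**
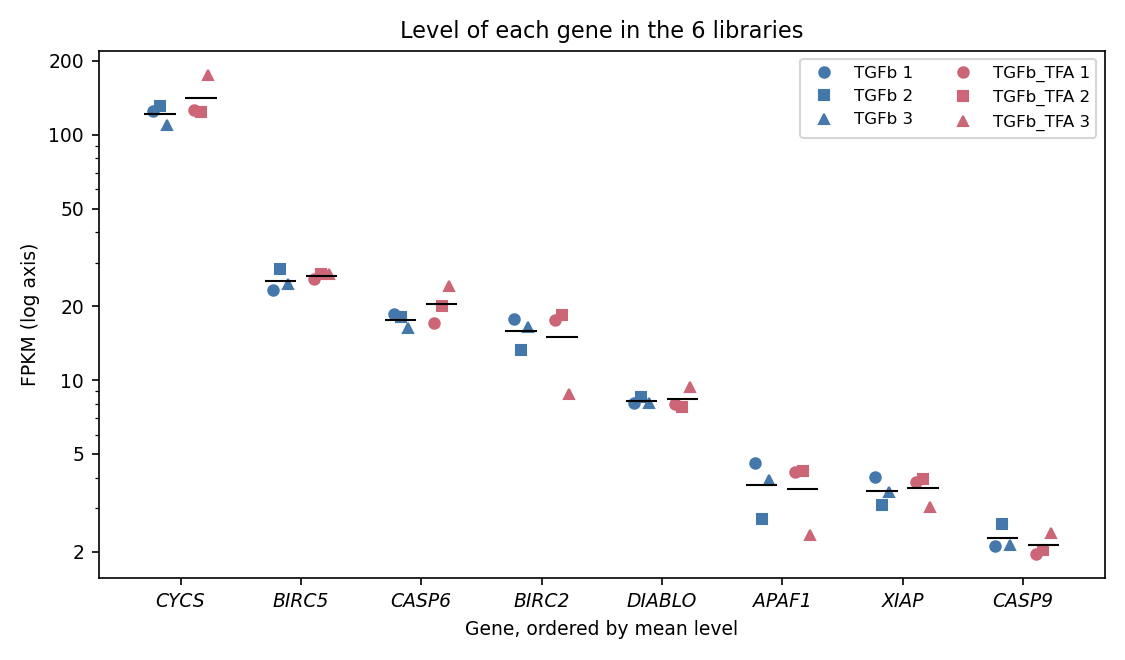
FPKM of the 8 genes (vertical log axis) in each library, ordered by mean level, with the TGFb group in blue, the TGFb_TFA group in red, marker shapes for replicates 1 to 3, and bars at the group means (n = 3). In every gene the groups overlap, and TGFb_TFA 3 sits at an edge in most of them, for example at 176 FPKM for CYCS and 8.78 FPKM for BIRC2.

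Among the apoptosome genes, CYCS was by far the most abundant. CYCS (ENSG00000172115, chromosome 7, 25118656 to 25125260, minus strand, GRCh38) stood at 125, 131 and 109 FPKM in TGFb 1 to 3 and at 126, 123 and 176 FPKM in TGFb_TFA 1 to 3. A single TFA library was high, while the other two lay inside the range of the TGFb group. Means were 122 ± 11.3 FPKM and 141 ± 29.5 FPKM (SD, n = 3), which the fit put at 0.27 on the log2 scale (SE 0.22, 95% interval -0.24 to 0.78). Without TGFb_TFA 3 it was -0.02 (interval -0.28 to 0.25). CYCS has many processed pseudogenes, and the 9 of them in the table summed to between 0.856 and 2.68 FPKM per library.

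APAF1, the scaffold of the apoptosome (ENSG00000120868, chromosome 12, 98645290 to 98735433, plus strand), had 4.596, 2.73 and 3.93 FPKM with TGF-β and 4.22, 4.27 and 2.33 FPKM with TFA added. Each group held a single low library, TGFb 2 and TGFb_TFA 3, and the remaining values were close together. The log2 fold change was -0.04 (SE 0.24, interval -0.60 to 0.51), and 0.14 (interval -0.33 to 0.61) without TGFb_TFA 3. Leaving out TGFb 2 as well gave -0.04 (interval -0.30 to 0.23). With a coefficient of variation of 25.1% over the 6 libraries, APAF1 was the most variable of the 8 genes.

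CASP9, the initiator caspase that APAF1 activates (ENSG00000132906, chromosome 1, 15490832 to 15524889, minus strand), was the scarcest member. It had 2.11, 2.60 and 2.14 FPKM with TGF-β and 1.96, 2.04 and 2.39 FPKM with TFA. The libraries in which APAF1 was low, TGFb 2 and TGFb_TFA 3, were those in which CASP9 was highest. Its log2 fold change was -0.06 (SE 0.19, interval -0.49 to 0.38). Without TGFb_TFA 3 the value was -0.23 (interval -0.61 to 0.14), which did not pass either.

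CASP6, the executioner caspase (ENSG00000138794, chromosome 4, 109688622 to 109703583, minus strand), measured 18.7, 18.03 and 16.3 FPKM with TGF-β and 17.03, 20.04 and 24.2 FPKM with TFA. Here 2 of the 3 TFA libraries lay above the TGFb range and the third lay within it. Means of 17.7 ± 1.24 FPKM and 20.4 ± 3.61 FPKM (SD, n = 3) gave a log2 fold change of 0.26 (SE 0.20, interval -0.20 to 0.72). CASP6 had the lowest unadjusted p of the 8 genes (0.230, edgeR). The value was 0.02 (interval -0.28 to 0.33) without TGFb_TFA 3. CASP6 shares 105 exon bases in GENCODE 29 with MCUB, a regulator of the mitochondrial calcium uniporter on the opposite strand, which stood at 13.3 to 18.02 FPKM with a log2 fold change of 0.13 (SE 0.20). The sources used here do not state whether the authors counted by strand.

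XIAP, the direct caspase inhibitor (ENSG00000101966, chromosome X, 123859724 to 123907020, plus strand), had 4.02, 3.09 and 3.50 FPKM with TGF-β and 3.86, 3.97 and 3.05 FPKM with TFA. High and low libraries were mixed between the groups. Its log2 fold change of 0.06 had the smallest standard error of the 8 (SE 0.14, interval -0.25 to 0.38), so that changes above 1.298-fold lay outside the interval. The value was 0.10 without TGFb_TFA 3, with an interval that reached higher (-0.21 to 0.41).

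BIRC2, the ubiquitin ligase cIAP1 (ENSG00000110330, chromosome 11, 102347211 to 102378670, plus strand), had 17.7, 13.3 and 16.5 FPKM with TGF-β and 17.5, 18.5 and 8.78 FPKM with TFA. TGFb_TFA 1 and 2 were at the top of the TGFb range or just above it, and TGFb_TFA 3 was far below every other library. The log2 fold change was -0.08 (SE 0.23, interval -0.62 to 0.46) and became 0.14 (interval -0.17 to 0.45) without TGFb_TFA 3. Leaving out TGFb 2 as well gave 0.04 (interval -0.14 to 0.23).

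BIRC5, the mitotic IAP survivin (ENSG00000089685, chromosome 17, 78214186 to 78225636, plus strand), was steadier. It had 23.2, 28.5 and 24.6 FPKM with TGF-β and 25.8, 27.0 and 27.2 FPKM with TFA, all 3 of the latter inside the TGFb range. The fit gave a log2 fold change of 0.10 (SE 0.15, interval -0.24 to 0.45), and 0.0070 (interval -0.29 to 0.30) without TGFb_TFA 3.

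DIABLO, the IAP antagonist (ENSG00000184047, chromosome 12, 122207663 to 122226568, minus strand), varied least, with a coefficient of variation of 7.18%. It had 8.05, 8.56 and 8.04 FPKM with TGF-β and 8.01, 7.80 and 9.41 FPKM with TFA, so the TFA libraries held both the lowest and the highest value. Its log2 fold change was 0.08 (SE 0.16, interval -0.31 to 0.46), or -0.10 (interval -0.35 to 0.14) without TGFb_TFA 3. DIABLO shares 2006 of its 6774 exon bases in GENCODE 29 with the same-strand gene AC048338 (ENSG00000284934) and 1139 with another gene of that name (ENSG00000256861). These had 0 to 10 and 0 to 30 estimated counts per library against 3780 to 4464 for DIABLO, and the sum of the 3 genes had a log2 fold change of 0.08 (SE 0.17). On the opposite strand, B3GNT4 shares 970 exon bases with DIABLO and had 53 to 195 estimated counts, which were not part of that sum.

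**Figure D2:**
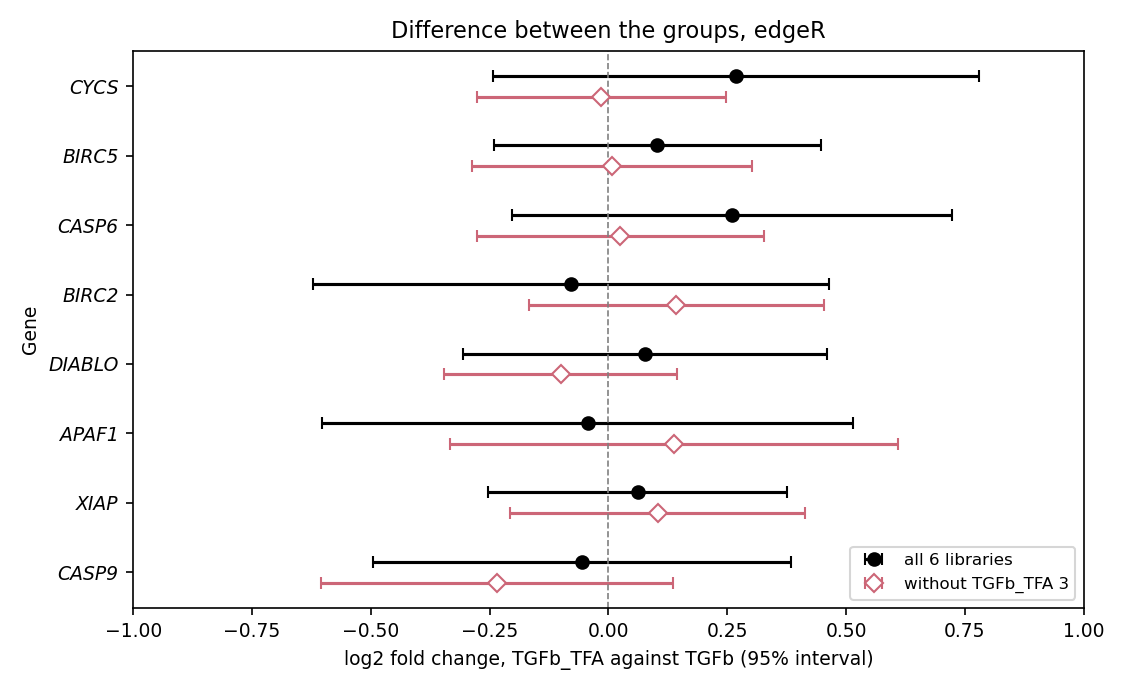
Fitted log2 fold change of each gene, TGFb_TFA against TGFb, with 95% intervals, from all 6 libraries (black circles) and without TGFb_TFA 3 (red diamonds). All 16 intervals cross 0, and CYCS moves from 0.27 to -0.02 and CASP6 from 0.26 to 0.02 when that library is left out.

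FPKM corrects for length, so levels can be set side by side between genes. In order of mean level over the 6 libraries came CYCS (132 FPKM), BIRC5 (26.0), CASP6 (19.0), BIRC2 (15.4), DIABLO (8.31), APAF1 (3.68), XIAP (3.58) and CASP9 (2.21). CYCS exceeded BIRC5 5.06-fold, with no overlap of their ranges. BIRC5 lay above CASP6 in all 6 libraries, although their ranges met. CASP6 and BIRC2 changed places, CASP6 being higher in 4 of 6 libraries, as did APAF1 and XIAP (APAF1 higher in 4 of 6). APAF1 was the lower of that pair in TGFb 2 and TGFb_TFA 3, and the part of the slope in this was not tested. DIABLO stood clear of APAF1 and XIAP stood clear of CASP9, without overlap.

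The balance between the antagonist and its target did not separate the groups. The FPKM ratio of DIABLO to XIAP was 2.00, 2.77 and 2.30 with TGF-β and 2.07, 1.96 and 3.09 with TFA. The scaffold and the initiator that it activates varied more: APAF1 to CASP9 was 2.18, 1.05 and 1.84 with TGF-β and 2.15, 2.09 and 0.977 with TFA. In both ratios TGFb 2 and TGFb_TFA 3 stood apart from the other 4 libraries, and treatment did not divide them.

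Seen by library, the 8 genes fell into contrasting profiles. In CPM, TGFb_TFA 3 was the highest library for 5 of them (CYCS, CASP6, DIABLO, CASP9 and BIRC5) and the lowest for 2 (APAF1 and BIRC2). In FPKM it was the highest for 3 (CYCS, CASP6 and DIABLO) and the lowest for 3 (APAF1, BIRC2 and XIAP), while CASP9 and BIRC5 were highest in TGFb 2. Departures in that library from the mean of the 6, in log2 CPM, ran from 0.60 for CYCS and 0.53 for CASP6 to -0.45 for APAF1 and -0.60 for BIRC2. Genes were also split into 10 equal classes by effective length, estimated from the deposited counts and FPKM. CASP6 (0.53, against a median of 0.27 for its class), APAF1 (-0.45 against -0.18), BIRC2 (-0.60 against -0.05), XIAP (-0.05 against -0.24) and BIRC5 (0.23 against 0.03) had the sign of their class. CYCS (0.60 against -0.10), DIABLO (0.35 against -0.18) and CASP9 (0.29 against -0.05) had the opposite sign. The part of length in these departures was not tested.

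**Figure D3:**
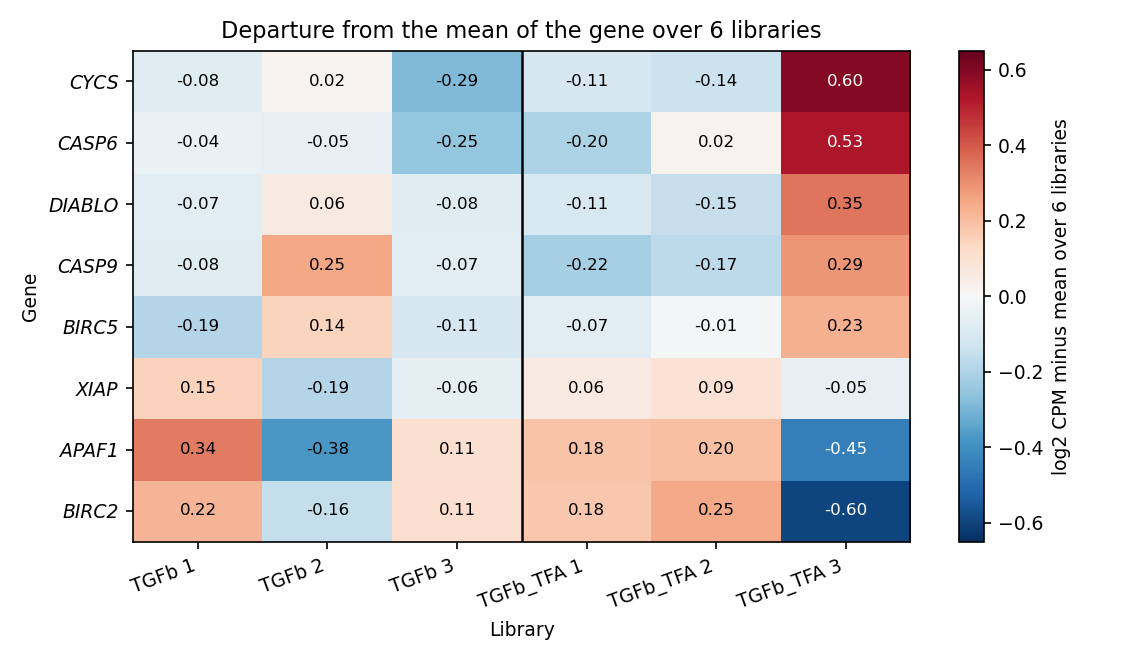
Departure of each gene (rows) in each library (columns) from its own mean over the 6 libraries, in log2 CPM, printed in each cell and coloured from blue (low) to red (high), with a line between the groups. TGFb_TFA 3 holds the strongest colours, from 0.60 for CYCS to -0.60 for BIRC2, and TGFb 2 is also low for APAF1 (-0.38), while TGFb_TFA 1 and 2 resemble each other.

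The remaining apoptosis machinery was read from 10 gene lists, with 104 distinct tested genes. By edgeR 0 of the 104 passed over all genes and 1 had an unadjusted p under 0.05, VIM, which DESeq2 also called. In log2 CPM the groups did not overlap in 4 genes (3.85%, against 7.91% of all genes): VIM, UBE2D1 and PGAM5 on the higher side and PANX1 on the lower, named after their values were seen. In FPKM the number was again 4: VIM, UBE2D1 and HCCS on the higher side and HSPB1, a small heat shock protein, on the lower. The median log2 fold change of the 104 was 0.0003, with 53 above 0.

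Among the other caspases, 6 of 9 in the table were tested, 3 above 0 and 3 below (median -0.02, and -0.06 without TGFb_TFA 3). CASP2, an initiator caspase, had the largest difference of this list, -0.24 (SE 0.22), and -0.04 without that library. The death receptor caspase CASP8 differed less (0.03, SE 0.12). CASP1 and CASP5, inflammatory caspases, and CASP14, the epidermal one, were too low to test.

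Of the other IAP genes, 3 were tested, with a median of 0.04 (0.26 without TGFb_TFA 3). In each of the 3, TGFb 2, which that fit keeps, was the lowest library of the TGFb group. BIRC6, a giant ubiquitin ligase, repeated the pattern of APAF1 and BIRC2 in a stronger form. It had 7.51, 2.64 and 6.58 FPKM with TGF-β and 6.54, 6.80 and 1.17 FPKM with TFA. Its log2 fold change was -0.22 (SE 0.59), and 0.22 without TGFb_TFA 3. The pattern was not particular to this family. PRKDC (7.55 and 4.65 FPKM) and ROCK1 (5.17 and 2.01 FPKM), listed as caspase substrates, were also lowest in TGFb 2 and TGFb_TFA 3. The part of the length slope of these libraries was not tested. NAIP, an inflammasome sensor, ran from 0.0436 to 0.146 FPKM (log2 fold change 0.34, SE 0.43). BIRC3 (cIAP2), the neighbour and close relative of BIRC2, had 0.04 (SE 0.26), and 0.26 without TGFb_TFA 3.

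IAP antagonists and ubiquitin partners (10 tested, 6 above 0, median 0.0006, and -0.06 without TGFb_TFA 3) included HTRA2, a mitochondrial protease that binds IAPs as DIABLO does, at 0.02 (SE 0.18), and -0.18 without that library. UBE2D3, a ubiquitin-conjugating enzyme and the most abundant of them, stood at 0.0002 (SE 0.11), and -0.05 without it, and USP19, a deubiquitinase, at -0.22 (SE 0.16), and -0.08 without it. UBE2D1, another conjugating enzyme, was at 14.8, 13.2 and 13.9 FPKM with TGF-β and 15.4, 15.4 and 15.2 FPKM with TFA, a separation of groups that did not pass (log2 fold change 0.17, SE 0.12, and 0.10 without TGFb_TFA 3).

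Apoptosome regulators (13 tested, 5 above 0, median -0.04) were led in abundance by the chaperone HSP90AA1, which also had the largest difference, -0.26 (SE 0.24) and -0.02 without TGFb_TFA 3. Genes of cytochrome c maturation and of the cristae that hold it (15 tested) lay above 0 in 12 cases (median 0.10), but at a median of -0.03 without TGFb_TFA 3. GHITM, a cristae protein and the most abundant, had 0.19 (SE 0.21), and -0.06 without that library. MICOS13, a subunit of the cristae junction complex, had 0.39 (SE 0.25), and 0.08 without it. HCCS, the lyase that attaches haem to cytochrome c, had 0.17 (SE 0.16), and -0.0075 without it.

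The other mitochondrial death factors and nucleases (7 tested, 4 above 0, median 0.03, and -0.04 without TGFb_TFA 3) were led by the phosphatase PGAM5, at 0.16 (SE 0.11), and the nuclease ENDOG differed most, by 0.26 (SE 0.27), and -0.08 without that library. Caspase substrates (19 tested, 14 below 0, median -0.07, and 0.06 without TGFb_TFA 3) included the lamin LMNA (-0.15, SE 0.14, and -0.07 without it) and PARP1, a DNA damage sensor (-0.07, SE 0.13, and 0.01 without it). The keratin KRT18 was their most abundant member (-0.14, SE 0.19, and -0.32 without it). PANX1, a membrane channel opened by caspase cleavage, had -0.22 (SE 0.14), and -0.12 without it. VIM, which encodes vimentin, was at 0.210, 0.613 and 0.755 FPKM with TGF-β and 2.28, 3.59 and 1.29 FPKM with TFA, without overlap (log2 fold change 2.17, SE 0.49). It did not pass in edgeR's test (adjusted p = 0.9997) and passed in DESeq2 (adjusted p = 0.00867). The trace fibroblast markers were also higher with TFA, but in another order of libraries. They summed to 0.448, 1.97 and 2.37 FPKM in TGFb_TFA 1 to 3. Their part in the value of VIM was not tested.

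Upstream adaptors (9 tested, 6 above 0, median 0.05, and 0.0065 without TGFb_TFA 3) held FADD, the death receptor adaptor and the most abundant, at 0.05 (SE 0.15), and -0.04 without that library. DEDD, a death effector domain protein, was at -0.18 (SE 0.18), and -0.09 without it. Partners of BIRC2 and XIAP in tumour necrosis factor and NF-kB signalling (11 tested, 7 above 0, median 0.01, and 0.0037 without it) held TRAF2, which brings BIRC2 to the receptor, at 0.0004 (SE 0.13), and -0.04 without it. RBCK1, a subunit of the linear ubiquitin ligase, was the most abundant of them (0.03, SE 0.12, and 0.01 without it) and RNF31, its catalytic subunit, differed most (-0.18, SE 0.46, and -0.68 without it). The mitotic partners of BIRC5 (11 tested, 3 above 0, median -0.07, and 0.05 without it) had the nuclear exporter XPO1 as their most abundant gene (-0.05, SE 0.19, and 0.12 without it). The other core subunits of the chromosomal passenger complex were at -0.11 (AURKB, the kinase, SE 0.16, and -0.17 without it), -0.30 (INCENP, the scaffold, SE 0.29, and -0.03 without it) and -0.03 (CDCA8, borealin, SE 0.12).

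**Figure D4:**
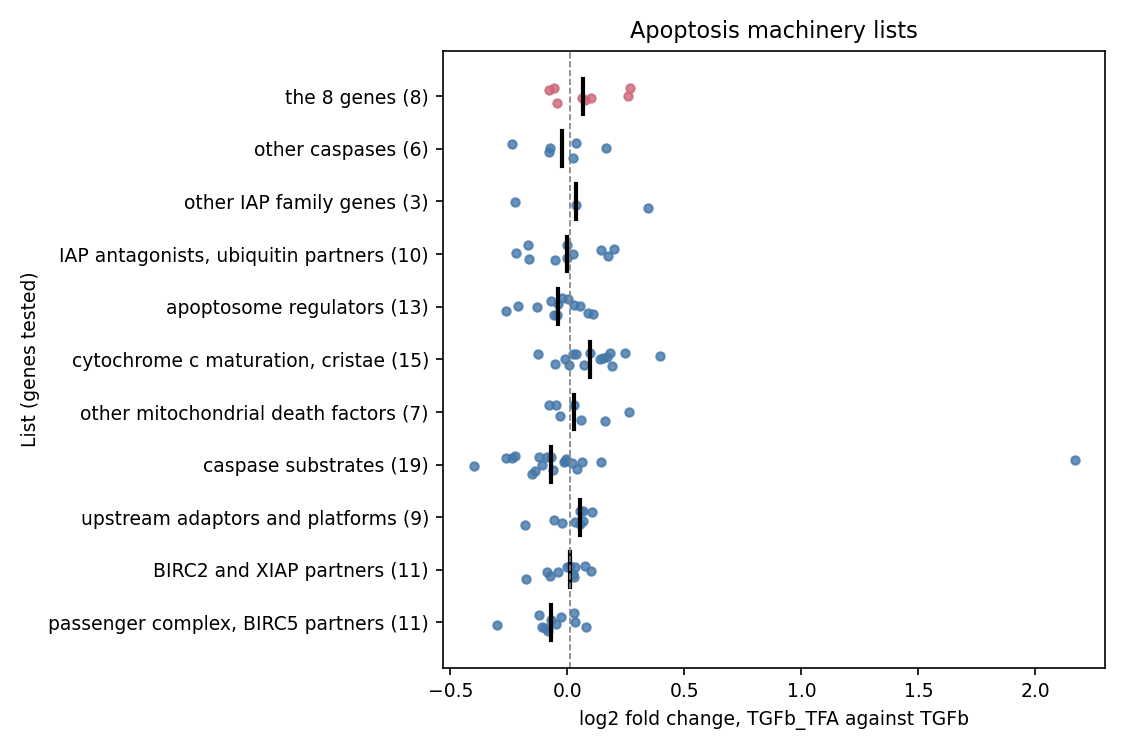
Fitted log2 fold change, TGFb_TFA against TGFb, of every tested gene (points) in the 8 genes (red) and the 10 lists (blue), with black bars at each median and a dashed line at the median of all tested genes (0.01). Medians lie between -0.07 and 0.10, and VIM is the lone point at 2.17.

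The genes whose profile over the 6 libraries was nearest to that of a member were sought among 5611 others at a mean of 5 FPKM or more. Likeness was the root mean square difference of centred log2 CPM. CASP6 was nearest to MRPL50 (0.0338), RNF113A (0.0380) and DERL2 (0.0389). BIRC5 was nearest to ALYREF (0.0223), UBE2S (0.0232) and UCK2 (0.0250). Within the 8 genes the closest pair was CASP6 and CYCS (0.0906) and the most distant CYCS and BIRC2 (0.568). Profiles over 6 shared libraries also hold what those libraries have in common, such as the length slope of TGFb_TFA 3.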

How the data were processed

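Poly(A) RNA of DLD-1 cells was sequenced in 6 libraries, 3 per group, with strand marked by dUTP, per the labels' protocols. Tools listed, per the submitters' processing notes, are StringTie 1.3.4d, HISAT2 2.0.4 and cutadapt 1.9, and the build is GRCh38. The authors deposited FPKM values and estimated counts per gene and library. A count of 4 was more frequent (1032 to 1271 genes per library) than 3 (601 to 685) or 5 (345 to 396), so fragments may be fewer than counts; a fit on counts divided by 4 was an alternative.

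The estimated counts were tested in edgeR 4.0.16 (R 4.3.3) with filterByExpr, TMM scaling and the quasi-likelihood F-test for group, without covariates (2-sided). Calls needed a Benjamini-Hochberg adjusted p below 0.05 over 18265 genes. Standard errors were derived from the fold change and F. The test was checked on simulated independent counts without a length slope, so that check does not cover such slopes. Alternatives used DESeq2 1.42.0, without independent filtering, limma 3.58.1 on log2(FPKM + pseudocount), other filters and scalings, and left-out libraries. No replicate pair was within sampling noise (lowest chi-square per degree of freedom 3.34, on counts divided by 4).

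The 8 members and all lists were chosen with earlier results of these data known. Genes named from a list were the most abundant, the most different and those at an unadjusted p under 0.05. Some genes the rule covers are not reported here. Others were named for their role, after their values were seen. Nearest profiles were sought for BIRC5 and for the member with the lowest unadjusted p.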

Additional observations from a re-analysis of the deposited data

How the results depend on the processing

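Over 20 alternatives (17 planned and 3 chosen after seeing the data: offsets along length and GC content, TGFb 2 and TGFb_TFA 3 left out together, and DIABLO summed with the AC048338 genes) no member was called, and 134 of 150 values kept their direction. The 16 that turned all came from fits with libraries left out. CASP6 kept its direction in all of its own alternatives. Leaving out 1 library gave log2 fold changes of -0.23 to 0.0634 for CASP9, -0.22 to 0.14 for APAF1, -0.0153 to 0.38 for CYCS, -0.10 to 0.15 for DIABLO, -0.0141 to 0.15 for XIAP, -0.24 to 0.14 for BIRC2, 0.02 to 0.40 for CASP6 and 0.0070 to 0.21 for BIRC5. Values turned without TGFb 1 (APAF1 0.12, BIRC2 0.0031), TGFb 2 (CASP9 0.0634, XIAP -0.0141), TGFb_TFA 1 (CASP9 0.02) or TGFb_TFA 3 (APAF1, CYCS, DIABLO, BIRC2). With TGFb 1 and TGFb_TFA 3 left out together they were 0.30 for APAF1, -0.0144 for CYCS, -0.13 for DIABLO, 0.22 for BIRC2 and -0.0740 for BIRC5. With TGFb 2 and TGFb_TFA 3 left out they were -0.0539 for DIABLO and 0.0446 for BIRC2. Members ran from -0.11 (CASP9) to 0.11 (BIRC5) in that fit. The cause of these turns was not tested. XIAP, APAF1 and CASP9 could not be fitted at a mean of at least 5 FPKM.

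Genes called over the whole table numbered 2, against 13 by DESeq2, 1 with the replicate number as a block, and 1 to 3 without 1 library: 1 without TGFb 2, TGFb_TFA 1 or TGFb_TFA 2 and 3 without TGFb_TFA 3. DESeq2 called 1 list gene (VIM), where edgeR called 0. Deviations of same-numbered libraries from their group means correlated at 0.04, -0.12 and -0.13. Those of TGFb 2 and TGFb_TFA 3, which share a length slope, correlated at 0.21. Such slopes can mask a pairing, so these values do not decide whether the numbers pair the libraries. With the block, members ran from -0.12 to 0.23 and 0 were called (edgeR). With 3 libraries a group, the intervals given above are the limit on what could be seen.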
